A study of Cricetulus griseus with 24 samples.

Results

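The insulin, IGF and Foxo signalling genes examined here are the 9 rows of the count table whose symbol is Insr, Igf1r, Igf2r, Irs1, Irs2, Igfbp4, Akt1, Foxo1 or Foxo3, of 28037 genes in all. Each symbol matched 1 row. The RNA came from Chinese hamster ovary (CHO) cells. A0 is a clone of the DG44 line that makes a humanized IgG antibody from plasmids that also carry selection marker genes, and A1 is progeny of A0 amplified with methotrexate. CHO-S is a CHO line that makes no antibody and serves as the control. The titles of its libraries carry the code NDST, whose meaning is not given in the sources used here. Each of the 3 lines was sampled in exponential and in stationary phase, with 4 A0, 3 A1 and 3 CHO-S cultures per phase. A0 and A1 are 1 clone each, so a difference between lines cannot be told apart from a difference between clones, and the labels give no culture conditions for CHO-S. According to the methods, A0 and A1 grew in suspension in a serum-free medium that contained recombinant human insulin. The ligand of the pathway was therefore supplied to both.

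Insulin and the insulin-like growth factors (IGFs) bind receptor tyrosine kinases at the cell surface. The activated receptor phosphorylates insulin receptor substrate (IRS) proteins, which recruit phosphoinositide 3-kinase (PI3K), and the lipid that PI3K makes brings the kinase Akt to the membrane. Akt phosphorylates the Foxo transcription factors, which then leave the nucleus bound to 14-3-3 proteins. When insulin signalling is low, Foxo factors stay in the nucleus and act on genes for cell cycle arrest, autophagy and stress resistance, and on the genes for the insulin receptor and Irs2 themselves. Transcript levels do not report phosphorylation or location, by which much of this pathway is controlled, so the values below are levels of mRNA only. In bulk RNA, fewer expressing cells and less RNA per cell cannot be told apart.

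Libraries held 1038026 to 14652646 counts on genes, with a median of 12166000. The shallowest was CHO-S stationary culture 1, in which Insr had 12 counts and Igf1r 13. In this library 32.8% of the entries were reads outside genes, against 18.2% and 18.1% in its replicates. CHO-S phase results are given with and without this library. Without it, fewer cultures remain and the test pools spread over many genes. The size of those adjusted p values is thus not a measure of replication between cultures. Levels are CPM, a gene's counts per 1000000 counts on genes in the culture, after scaling by the trimmed mean of M-values (TMM), 1 value per culture. The 8 A0 exponential libraries come from 4 cultures, and the repeats of each culture were summed. The repeat carries the label RLT in cultures 1 and 2 and the label duplicate in cultures 3 and 4, and A0 results are also given within these sets. Chi-square per degree of freedom between the libraries of a culture was 26.8 and 5.98 in cultures 1 and 2. It was 3.12 and 2.74 in cultures 3 and 4. In culture 1, the first and RLT libraries had 228 and 164 CPM of Igf2r but 404 and 405 CPM of Igfbp4. The sets thus differ in kind of repeat as well as in cultures, and the part of each was not tested. The 6 fibroblast-type markers looked at (Vim, Fn1, Cald1, Tpm1, Lgals1, S100a6) had means of at least 79.6 CPM in every group. Markers of other cell types (Ptprc, Epcam, Cdh5, Pecam1, Alb, Gcg and Ins) had means of at most 4.84 CPM, and Gcg and Ins had no count in any culture.

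The first question was how the pathway differed between stationary and exponential phase in each line. In A0, 4 of the 8 members tested passed an adjusted p of 0.05. Insr and Foxo3 rose and Igfbp4 and Akt1 fell, where 37.7% of all tested genes were called (17.7% higher and 20.1% lower). In A1, 6 of 8 passed: Insr, Irs1, Foxo1 and Foxo3 rose and Igfbp4 and Akt1 fell, beside 33.4% of all genes (15.6% higher, 17.8% lower). In CHO-S, 1 of 9 passed, Irs1, which rose, beside 13.3% of all genes (6.81% higher, 6.48% lower). Without CHO-S stationary culture 1, the CHO-S count was 7 of 9, beside 47.7% of all genes. Irs2 did not pass the filter on low counts in A0 or A1. The share of members called was thus near the share of all genes in A0 and above it in A1, but all genes here include those with few counts. With a stricter filter on low counts (filterByExpr of edgeR), 4 members were called in A0 beside 7293 of 13682 genes. In A1 that filter gave 6 members beside 6124 of 12988 genes. In a fit of all 6 groups together, 3 members were called in A1. Whether the members exceed genes of like level was not tested. The CHO-S counts moved with every culture left out. Leaving out any other CHO-S culture gave 0 members, and 0 to 574 genes in place of 2308 over all genes. Without CHO-S exponential culture 1, 2 or 3 the counts over all genes were 310, 0 and 282, and without stationary culture 2 or 3 they were 337 and 574.

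**Figure D1:**
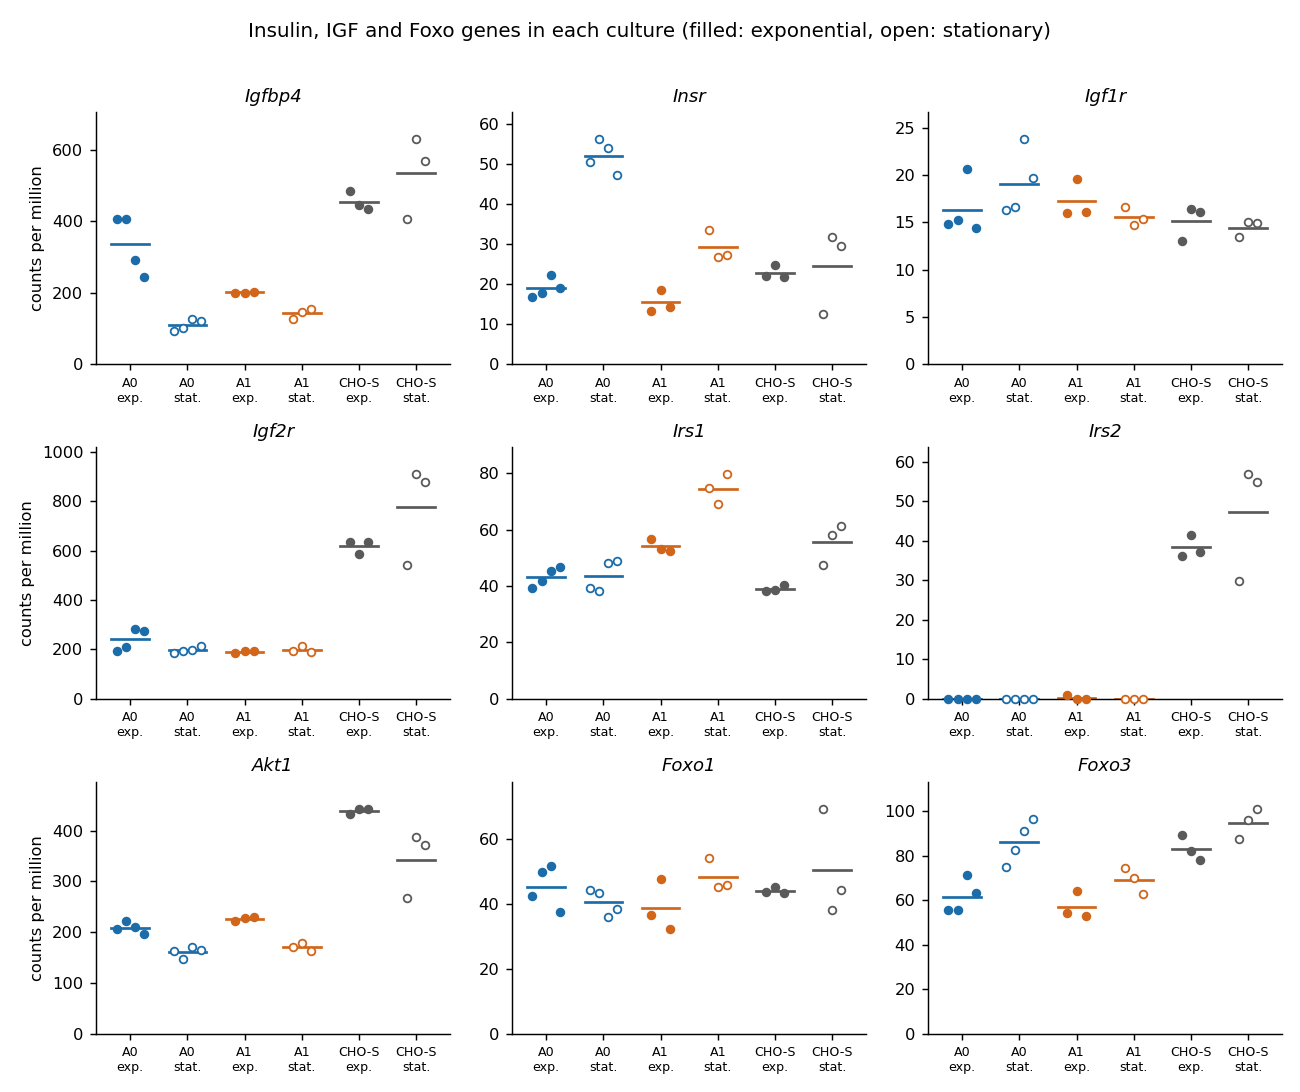
Level of each of the 9 genes in the 20 cultures, in CPM on linear axes from 0, with filled points for exponential and open points for stationary phase, and a line at each group's mean. Insr in A0 stationary phase (47.3 to 56.1) and Irs2 in CHO-S (29.9 to 56.9, against at most 0.982 in A0 and A1) lie apart from the other groups. CHO-S stationary culture 1, the leftmost open grey point, is lower than its replicates for every gene except Foxo1, for which it is higher.

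Igfbp4 encodes a secreted protein that binds IGFs and limits their access to the receptor. In A0 its level was 407, 405, 293.0 and 244 CPM in the 4 exponential cultures and 93.3, 99.6, 125 and 122 CPM in stationary phase. Every stationary culture lay below every exponential culture, and cultures 1 and 2 were higher than 3 and 4 in exponential phase but lower in stationary phase. Igfbp4 fell by 1.63 (SE 0.155) on the log2 scale, or 3.09-fold, with an adjusted p of 6.92e-07. Within the sets the log2 difference was -2.08 (adjusted p 6.33e-06) for cultures 1 and 2 and -1.12 (adjusted p 0.0021) for cultures 3 and 4. Both sets fell, and the difference in size between them was not tested.

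In A1, Igfbp4 was at 200.4, 199.9 and 203 CPM in exponential and 127, 146 and 153 CPM in stationary phase, again without overlap. The fall of 0.48 (SE 0.0631, adjusted p 3.82e-07) was smaller than in A0, and the test of that difference gave 1.11 (SE 0.197, adjusted p 9.62e-04). In a fit of all 6 groups together the fall in A1 had an adjusted p of 0.0591. In CHO-S, Igfbp4 was at 486, 446 and 434 CPM in exponential and 408, 629.9 and 569 CPM in stationary phase. Its log2 difference of 0.24 (SE 0.169) did not pass (adjusted p 0.385), but without stationary culture 1 it was 0.40 (SE 0.0433, adjusted p 1.02e-13), a rise. The phase response of Igfbp4 differed from that of CHO-S by -1.89 in A0 (SE 0.267, adjusted p 1.14e-04). It differed by -0.74 in A1 (SE 0.193, adjusted p 0.0325), a call that passed when CHO-S stationary culture 1 was left out (-0.90, adjusted p 1.86e-14) and was lost when any other single culture was left out.

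Igfbp4 was the member whose difference between A1 and A0 was called in opposite directions in the 2 phases. The means of Igf1r, Igf2r and Foxo1 also changed order, with no call in either phase. It was lower in A1 than in A0 by 0.75 (SE 0.151, adjusted p 0.00194) in exponential phase, and higher by 0.36 (SE 0.106, adjusted p 0.0171) in stationary phase. The exponential difference was -1.02 against A0 cultures 1 and 2 and -0.42 against cultures 3 and 4. The stationary difference lost its call without A1 stationary culture 2 or 3 and in the fit of all groups (adjusted p up to 0.104). The order of the group means ran from CHO-S stationary (536) and CHO-S exponential (455), which overlapped, through A0 exponential (337), A1 exponential (201) and A1 stationary (142) to A0 stationary (110). The last 4 did not overlap with their neighbours.

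Insr encodes the insulin receptor, a tyrosine kinase. In A0, Insr was at 16.9, 17.9, 22.2 and 18.9 CPM in exponential and 50.5, 56.1, 54.1 and 47.3 CPM in stationary phase. The 4 stationary values were the highest of all 20 cultures. The rise was 1.45 (SE 0.110, adjusted p 7.45e-08), or 2.72-fold, and it held within cultures 1 and 2 (1.61, adjusted p 2.59e-05) and within cultures 3 and 4 (1.30, adjusted p 0.00192). In A1, Insr went from 13.3, 18.6 and 14.3 CPM to 33.4, 26.8 and 27.2 CPM, also without overlap, a rise of 0.92 (SE 0.114, adjusted p 1.28e-07). In CHO-S the exponential values were 21.9, 24.7 and 21.8 CPM and the stationary values 12.4, 31.7 and 29.4 CPM. The 12.4 rests on 12 counts. The CHO-S difference of 0.29 (SE 0.205, adjusted p 0.386) became a rise of 0.44 (SE 0.0888, adjusted p 1.59e-05) without that culture.

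The Insr response was larger in A0 than in CHO-S by 1.15 (SE 0.239, adjusted p 0.00367), and by 1.06 (adjusted p 7.36e-05) without CHO-S stationary culture 1. Within A0 cultures 3 and 4 the adjusted p of that difference was 0.0686. The response in A1 was smaller than in A0 by a log2 difference of -0.56 (SE 0.175, adjusted p 0.0485). That call was lost in 12 of the 23 alternatives run, among them A0 cultures 3 and 4 alone (-0.40, adjusted p 0.225), and it remained in the fit with a replicate block (adjusted p 0.00403). Leaving out 1 culture ended it for A0 exponential 1 or 2, A0 stationary 1, 2 or 3, A1 exponential 2 or 3 and A1 stationary 2 or 3. The block also pairs A1 cultures by number, and same-numbered A1 cultures did not deviate together. Between A1 and A0, Insr did not pass in exponential phase (-0.30, SE 0.138, adjusted p 0.129) and was lower in A1 in stationary phase by a log2 difference of -0.86 (SE 0.104, adjusted p 2.46e-05). The genes with the level pattern most like that of Insr over the 20 cultures were Ern1 (the endoplasmic reticulum stress sensor IRE1), Kif3c and Zc3h3, with root mean square differences of 0.236, 0.237 and 0.243 on the centred log2 scale among 10588 genes.

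Igf1r encodes the receptor for IGF1 and for insulin at high concentration. It was at 14.8, 15.3, 20.7 and 14.4 CPM in A0 exponential and 16.3, 16.6, 23.8 and 19.7 CPM in A0 stationary phase. In A1 it was at 16.04, 19.6 and 16.1 CPM and then 16.6, 14.7 and 15.4 CPM. CHO-S had 13.1, 16.4 and 16.1 CPM in exponential and 13.4, 15.02 and 14.9 CPM in stationary phase. The CHO-S phase difference was -0.03 (adjusted p 0.905), and -0.01 (adjusted p 0.957) without stationary culture 1. All neighbouring group means overlapped, and Igf1r passed in 0 of the 12 comparisons by edgeR and 0 by DESeq2, with 1 at an unadjusted p under 0.05. In stationary phase it was called lower in A1 than in A0 when the A0 cultures were 3 and 4 alone (adjusted p 0.00399) or lacked culture 1 (adjusted p 0.0472). The 95% intervals of the phase differences were -0.07 to 0.51 in A0, -0.36 to 0.09 in A1 and -0.28 to 0.22 in CHO-S, so changes of up to these sizes cannot be told from 0 here.

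Igf2r encodes the cation-independent mannose 6-phosphate receptor, which carries lysosomal enzymes and takes up and degrades IGF2. Its level was 635, 589 and 634 CPM in CHO-S exponential phase, 195, 211, 282 and 276 CPM in A0 and 186, 194 and 195 CPM in A1. No A0 or A1 culture of either phase came above 282 CPM, and no CHO-S culture below 542 CPM. Against CHO-S, the log2 difference was -1.35 (SE 0.121, adjusted p 3.63e-07) in A0 and -1.70 (SE 0.0446, adjusted p 2.68e-19) in A1 in exponential phase. In stationary phase these were -2.0 (SE 0.184, adjusted p 1.75e-05) and -1.99 (SE 0.208, adjusted p 2.32e-04). The comparisons share the CHO-S cultures.

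By phase, Igf2r did not pass in A0 (-0.30, SE 0.119, adjusted p 0.0584), and the call depended on the set. In cultures 1 and 2 the difference was -0.11 (adjusted p 0.297), and in cultures 3 and 4 it was -0.44 (adjusted p 0.0151). With the A0 cultures paired by number it was a fall of 0.28 (SE 0.0935, adjusted p 0.00696). In exponential phase the log2 difference of A1 from A0, -0.33, had an adjusted p of 0.0549, with -0.09 (adjusted p 0.259) against A0 cultures 1 and 2 and -0.55 (adjusted p 7.1e-04) against cultures 3 and 4. Without CHO-S stationary culture 1, Igf2r rose in CHO-S by 0.53 (SE 0.0403, adjusted p 2.88e-21).

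The adaptors Irs1 and Irs2 link the receptors to PI3K. Irs1 was at 39.3, 41.6, 45.4 and 46.8 CPM in A0 exponential and 39.4, 38.2, 48.3 and 48.7 CPM in A0 stationary phase. These ranges overlapped, with a difference of 0.00 (95% interval -0.21 to 0.21). In A1, Irs1 was at 56.6, 53.3 and 52.4 CPM and rose to 74.8, 68.9 and 79.6 CPM, by 0.48 (SE 0.0711, adjusted p 2.69e-06). In CHO-S it went from 38.1, 38.5 and 40.5 CPM to 47.5, 58.2 and 61.1 CPM, a rise of 0.54 (SE 0.138, adjusted p 0.043). That call was lost when any culture other than stationary culture 1 was left out, and without stationary culture 1 the rise was 0.61 (adjusted p 1.21e-12). The difference between the A1 and A0 responses, 0.44 (SE 0.142), missed the threshold (adjusted p 0.0537), with 0.44 (adjusted p 0.0105) under the replicate block. That block also pairs A1 cultures by number, although same-numbered A1 cultures did not deviate together.

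Irs1 was higher in A1 than in A0 in both phases, by 0.32 (SE 0.0943, adjusted p 0.0205) in exponential and 0.76 (SE 0.101, adjusted p 5.79e-05) in stationary phase, with no A1 culture below any A0 culture of the same phase. The exponential call was lost without A0 exponential culture 2, without any 1 of the 3 A1 cultures, and against A0 cultures 3 and 4 alone (0.22, adjusted p 0.0762). The stationary difference passed in all 15 alternatives run. A1 exponential phase was also above CHO-S by 0.47 (SE 0.0635, adjusted p 9.86e-07). The A1 stationary mean (74.4) was the highest of the 6 groups and did not overlap with the next, CHO-S stationary (55.6).

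Irs2 was detected in CHO-S and was at or close to 0 in the producing lines. CHO-S cultures had 508, 497 and 491 counts in exponential phase (36.3, 41.5 and 37.3 CPM) and 29, 776 and 405 counts in stationary phase (29.9, 56.9 and 54.9 CPM). All 8 A0 exponential libraries had 0 counts of Irs2 in a total of 99909885 counts on genes, and the 4 A0 stationary libraries 0 in 47575164. A1 had 12, 0 and 0 counts in exponential phase and 0 in the 3 stationary cultures. With 3 counts over the group taken as the upper limit for a count of 0, the level was at least 1260-fold higher in CHO-S than in A0 in exponential phase and at least 895-fold higher in stationary phase. It was at least 582-fold higher than in A1 stationary phase. Against A1 exponential phase the ratio was 118, and without A1 exponential culture 1 at least 316. These limits cover counting error only. By phase in CHO-S, the Irs2 difference of 0.37 (adjusted p 0.288) became a rise of 0.55 (adjusted p 1.23e-10) without stationary culture 1.

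The 12 Irs2 counts of A1 exponential culture 1 were 2.56% of the mean CHO-S exponential CPM. Of 16 genes, Irs2 among them, with no count in any other A0 or A1 culture and at least 5 CPM on average in CHO-S exponential phase, 14 had counts in this library. Summed, they reached 1.73% of the CHO-S level, and single genes ranged from 0 to 3.76%. This set was chosen after its values were seen. Hoxa7 and Msh3, the genes with the level pattern most like Irs2 (root mean square differences 0.244 and 0.261), had 9 and 8 counts there and 0 in every other A0 and A1 culture. The source of these counts was not tested.

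**Figure D2:**
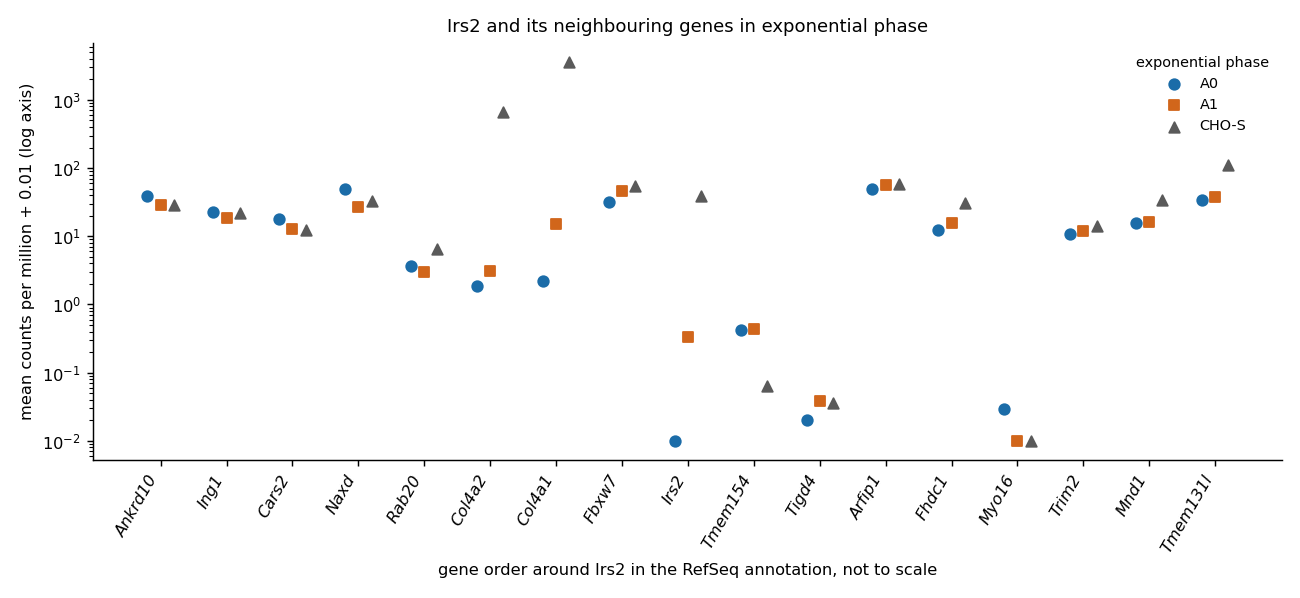
Mean exponential-phase level of Irs2 and of the 8 genes on either side of it in the RefSeq gene order (by chromosome label and start position, not to scale). Values are CPM plus 0.01 on a log axis, with circles for A0, squares for A1 and triangles for CHO-S. Col4a1, Col4a2 and Irs2 are far higher in CHO-S. Fbxw7 (32.0, 45.6 and 54.0) and Arfip1 (49.7, 56.5 and 59.2), placed on either side of Irs2 in this order, have counts in all 3 lines.

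In the RefSeq gene order of assembly CriGri-PICRH-1.0, another build than the one the reads were aligned to, Irs2 comes next to Fbxw7 and near Col4a1 and Col4a2. The order was taken from chromosome label and start position, so genes on different scaffolds with the same label would be mixed. This was not checked. Fbxw7, a ubiquitin ligase subunit, had means of 32.0, 45.6 and 54.0 CPM in exponential A0, A1 and CHO-S, and the cultures of the 3 lines did not overlap. Arfip1, on the other side in this order, had 49.7, 56.5 and 59.2 CPM. Col4a1 and Col4a2, paired genes for the chains of type IV collagen, had 3640 and 674 CPM in CHO-S but 2.21 and 1.85 CPM in A0 and 15.3 and 3.13 CPM in A1. In A1 exponential phase Col4a1 had 553, 4 and 4 counts in the 3 cultures, so its mean rests on culture 1. Low levels in A0 and A1 were therefore shared by Col4a2, Col4a1 and Irs2. Whether Fbxw7 lies between them on the chromosome was not tested. Whether the DNA is present in A0 and A1 was not tested.

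Akt1 encodes the kinase through which insulin and IGF signals reach Foxo factors and protein synthesis. It fell in A0 from 205, 223, 210 and 196 CPM to 163, 147, 170 and 165 CPM, by 0.38 on the log2 scale (SE 0.0892, adjusted p 0.00286). In A1 it fell from 221, 227 and 229 CPM to 171, 179 and 163 CPM, by 0.39 (SE 0.0565, adjusted p 2.21e-06). Neither line had overlapping phases. In cultures 3 and 4 of A0 alone, the fall of 0.27 had an adjusted p of 0.0627. In CHO-S, Akt1 was at 433, 442 and 442 CPM and then at 266, 388 and 372 CPM, a difference of -0.35 (SE 0.157, adjusted p 0.185) that was -0.20 (adjusted p 2.84e-05) without stationary culture 1.

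Akt1 in A1 and A0 did not differ past the threshold in either phase (0.12 with interval -0.05 to 0.28, and 0.07 with interval -0.07 to 0.21). Both lines were lower than CHO-S. The log2 difference from CHO-S was -1.06 (SE 0.0794, adjusted p 5.91e-08) in A0 and -0.96 (SE 0.041, adjusted p 1.72e-15) in A1 in exponential phase, and -1.11 (adjusted p 3.32e-04) and -1.03 (adjusted p 0.00238) in stationary phase. Akt2, a related kinase, had means of 165, 164 and 181 CPM in exponential A0, A1 and CHO-S.

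Foxo1 and Foxo3 encode transcription factors that Akt inactivates. Foxo3 rose in A0 from 55.5, 55.4, 71.2 and 63.3 CPM to 74.7, 82.8, 91.0 and 96.4 CPM, by 0.48 (SE 0.111, adjusted p 0.00249), with no overlap. The rise was 0.50 (adjusted p 0.00201) in cultures 1 and 2 and 0.48 (adjusted p 0.017) in cultures 3 and 4. In A1, Foxo3 was at 54.3, 64.0 and 53.1 CPM and then 74.7, 70.1 and 62.8 CPM, a rise of 0.29 (SE 0.0764, adjusted p 0.00336) with 1 stationary culture inside the exponential range. In CHO-S it was at 89.2, 82.0 and 77.9 CPM and then 87.7, 96.0 and 100.9 CPM, which did not pass (0.20, adjusted p 0.353) but was 0.24 (adjusted p 1.97e-04) without stationary culture 1.

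The 3 Foxo3 responses did not differ past the threshold from each other (adjusted p 0.416 for A1 and A0, 0.438 for A0 and CHO-S and 0.893 for A1 and CHO-S). The A1 call was lost without A1 exponential culture 3 and in the fit of all groups, with an adjusted p of up to 0.177. Foxo3 was lower in A1 than in A0 in stationary phase by a log2 difference of -0.33 (SE 0.0967, adjusted p 0.0153), a call lost without A1 stationary culture 2 or 3. It was lower than in CHO-S in exponential phase in both lines, at -0.43 (adjusted p 0.00294) in A0 and -0.55 (adjusted p 2.34e-07) in A1.

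Foxo1 spanned 32.3 to 69.2 CPM over the 20 cultures, and all neighbouring group means overlapped. The 69.2 is CHO-S stationary culture 1, from 67 counts. Foxo1 was called in A1 by phase, from 36.6, 47.6 and 32.3 CPM to 54.2, 45.3 and 45.7 CPM (0.33, SE 0.0996, adjusted p 0.0104), with overlapping values. That call was lost without A1 exponential culture 1 or 3, without A1 stationary culture 1, and in the fit of all groups, where the adjusted p was up to 0.244. In A0 the difference was -0.18 (SE 0.117, adjusted p 0.268), and the difference between the A1 and A0 responses was 0.47 (SE 0.183, adjusted p 0.12). In CHO-S the phase difference was 0.12 (adjusted p 0.774), and -0.12 (adjusted p 0.198) without stationary culture 1.

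**Figure D3:**
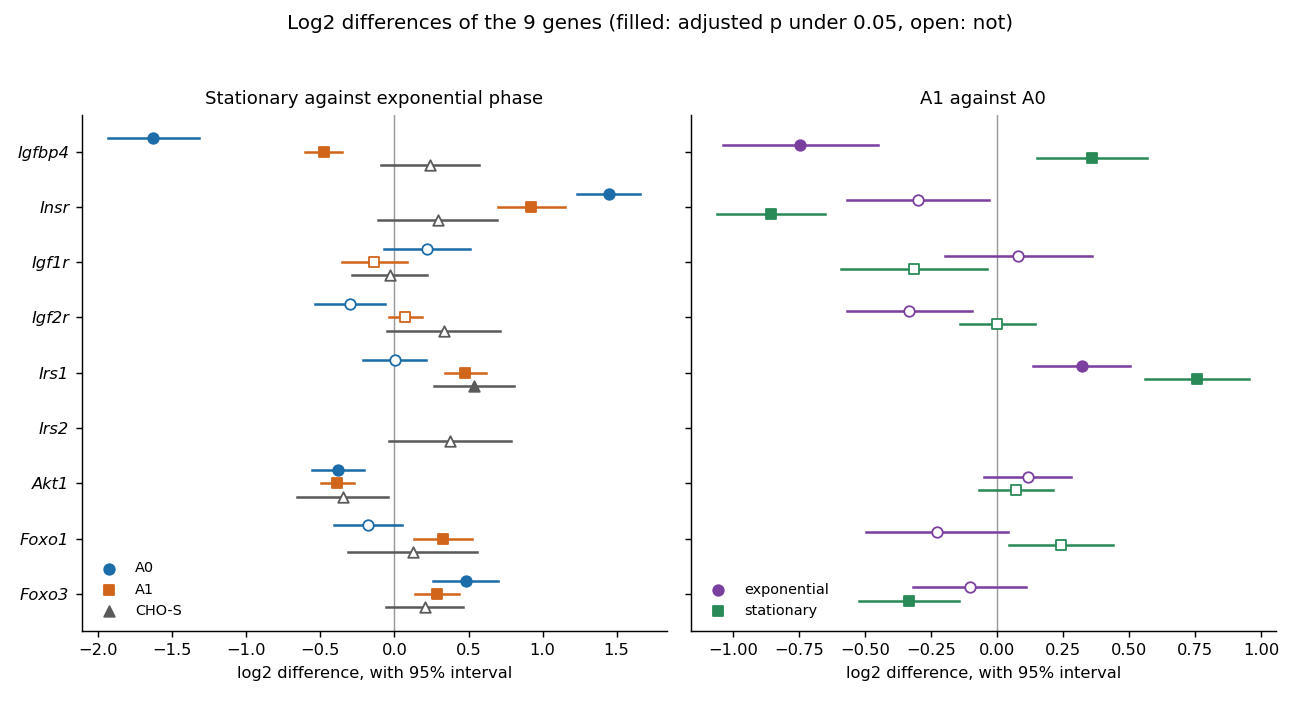
Log2 differences of the 9 genes with their 95% intervals, stationary against exponential phase in the 3 lines (left) and A1 against A0 in the 2 phases (right), with filled symbols for an adjusted p under 0.05. Insr and Igfbp4 have the widest differences by phase, 1.45 and -1.63 in A0, and Igfbp4 is below 0 in exponential and above 0 in stationary phase on the right. Irs2 has no value where it was not tested.

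The second question was how the amplified progeny differed from its parent. In exponential phase 2 of 8 members were called, Irs1 higher and Igfbp4 lower in A1, beside 25.9% of all genes (12% higher, 13.8% lower). In stationary phase 4 of 8 were called, Irs1 and Igfbp4 higher and Insr and Foxo3 lower, beside 33.7% (16% higher, 17.7% lower). The phase responses of the lines differed for 2 of 8 members (Insr and Igfbp4), beside 8.94% of all genes. With the replicate block the count was 5, with Igf2r, Irs1 and Foxo1 in addition, but the block also pairs A1 cultures, whose numbers did not go together. These comparisons share their cultures with the phase comparisons above.

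Against CHO-S, 5 of 9 members were lower and none higher in A0 exponential phase (Igf2r, Irs2, Igfbp4, Akt1 and Foxo3), beside 49.5% of all genes, whose median log2 difference was 0.144. In stationary phase Insr was higher in A0 and Igf2r, Irs2, Igfbp4 and Akt1 lower, 5 of 9 beside 40.0%. The Insr call (0.94, adjusted p 0.00745) was lost against A0 cultures 1 and 2 alone (adjusted p 0.0545) and cultures 3 and 4 alone (adjusted p 0.0858). In A1 exponential phase, Insr, Igf2r, Irs2, Igfbp4, Akt1 and Foxo3 were lower and Irs1 higher, 7 of 9 beside 57.2%. In A1 stationary phase, Igf2r, Irs2, Igfbp4, Akt1 and Foxo3 were lower, 5 of 9 beside 34.8%. Without CHO-S stationary culture 1 the stationary counts were 6 of 9 in A0, with Irs1 lower in addition, beside 51.8%, and 7 of 9 in A1, with Irs1 and Foxo1 higher in addition, beside 57.4%. Igf2r, Irs2, Igfbp4 and Akt1 were called lower in all 4 of these comparisons, which share the CHO-S cultures. The call of Igfbp4 in A0 exponential phase (-0.42, adjusted p 0.0308) was lost in 5 of the 16 alternatives, without A0 exponential culture 3 or 4 or any 1 CHO-S exponential culture. The call of Foxo3 in A1 stationary phase (-0.48, adjusted p 0.0334) was lost in 6 of 12.

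The phase responses differed between A0 and CHO-S for 2 of 9 members (Insr and Igfbp4), beside 10.3% of all genes, and between A1 and CHO-S for 1 of 9 (Igfbp4), beside 7.60%. Without CHO-S stationary culture 1 these counts were 4 of 9, with Igf2r and Irs1 in addition, beside 17.2%, and 6 of 9, beside 25.4%. The 6 were Igfbp4, Insr, Igf2r, Irs2, Akt1 and Foxo1. Irs2 is counted in the 9, but with 0 counts in A0 its response there could not be tested. In A1 the Irs2 response rests on 12 counts in exponential culture 1. CHO-S stationary culture 1 was both the shallowest and the one with the largest share of reads outside genes. Their part in its values was not tested.

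The wider pathway was described with lists of other genes of the same roles, with the 9 members left out of the lists except where stated. Of the ligands and IGF-binding proteins, Ins, Igf2, Igfbp1, Igfbp3 and Pappa had no count in any culture, and Igf1 had group means of at most 0.054 CPM. Stc2, an inhibitor of the protease that cleaves Igfbp4, was at 27.1 CPM in CHO-S exponential phase and fell there by 0.95 (adjusted p 0.00916), or by 0.94 (adjusted p 1.38e-12) without stationary culture 1. It had at most 0.0931 CPM in any A0 or A1 culture. Among receptor adaptors and dampers, 2 of 20 were higher and 6 lower by phase in A0, beside 37.7% of all genes called, and 1 and 5 of 20 in A1, beside 33.4%. In CHO-S, 0 of 19 were called by edgeR and 3 had an unadjusted p under 0.05, whereas 3 were higher and 6 lower without stationary culture 1, beside 47.7% of all genes.

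In the PI3K and Akt arm, 5 of 27 genes were higher and 8 lower in A0 stationary phase, beside 37.7% of all genes called, and 5 and 6 of 26 in A1, beside 33.4%. Trib3, a pseudokinase that binds Akt and is also a known target of the stress factor Atf4, had the largest rises. It went from 12.9, 14.2, 11.7 and 14.4 CPM to 226, 215, 165 and 160.1 CPM in A0 (log2 difference 3.84, SE 0.136, adjusted p 7.51e-11). In A1 it went from 35.7, 45.6 and 42.9 CPM to 215, 192 and 189 CPM (2.28, SE 0.0749, adjusted p 7.52e-20), and the A1 response was smaller (-1.60, adjusted p 4.29e-06). Pik3r2, a regulatory subunit of PI3K, fell by 0.56 in A1 (adjusted p 3.67e-08) and by 0.78 in A0.

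Of the Foxo factors and their regulators, 4 of 24 were higher and 12 lower in A0 stationary phase, with a median of -0.30, and 2 and 10 of 24 in A1, with a median of -0.24. The shares of all genes called were 37.7% and 33.4% and the medians of all genes 0.00 and 0.03. Of the 14-3-3 genes of the list, 6 matched the table by symbol. Of these, Ywhab, Ywhah, Ywhaq and Ywhaz fell in both lines, with adjusted p values of 5.06e-06, 6.92e-07, 9.66e-06 and 6.23e-04 in A0 and 2.69e-06, 1.19e-08, 7.73e-07 and 1.36e-07 in A1. Ywhag, at 9.04 CPM in A0 exponential phase, rose by 0.37 in A0 (adjusted p 0.0482) and did not pass in A1 (-0.12, adjusted p 0.644), and Sfn, under 1 CPM, passed in neither. Ywhah fell most in A0, from 559.8, 575, 573 and 404 CPM to 204, 200.3, 230.3 and 247 CPM (-1.27, SE 0.121, adjusted p 6.92e-07). Skp2, a ubiquitin ligase subunit that acts in the cell cycle and on Foxo1, fell by 0.55 in A1 (adjusted p 5.4e-05) and by 1.09 in CHO-S (adjusted p 0.00422). Sirt1, a deacetylase of Foxo factors, fell by 1.01 in CHO-S (adjusted p 0.00379). Without stationary culture 1 these falls were 1.04 (adjusted p 9.04e-21) and 1.02 (adjusted p 4.31e-16). In CHO-S, 1 of 22 of these genes was higher and 2 lower, beside 13.3% of all genes called. Without stationary culture 1, 6 were higher and 9 lower, beside 47.7%.

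**Figure D4:**
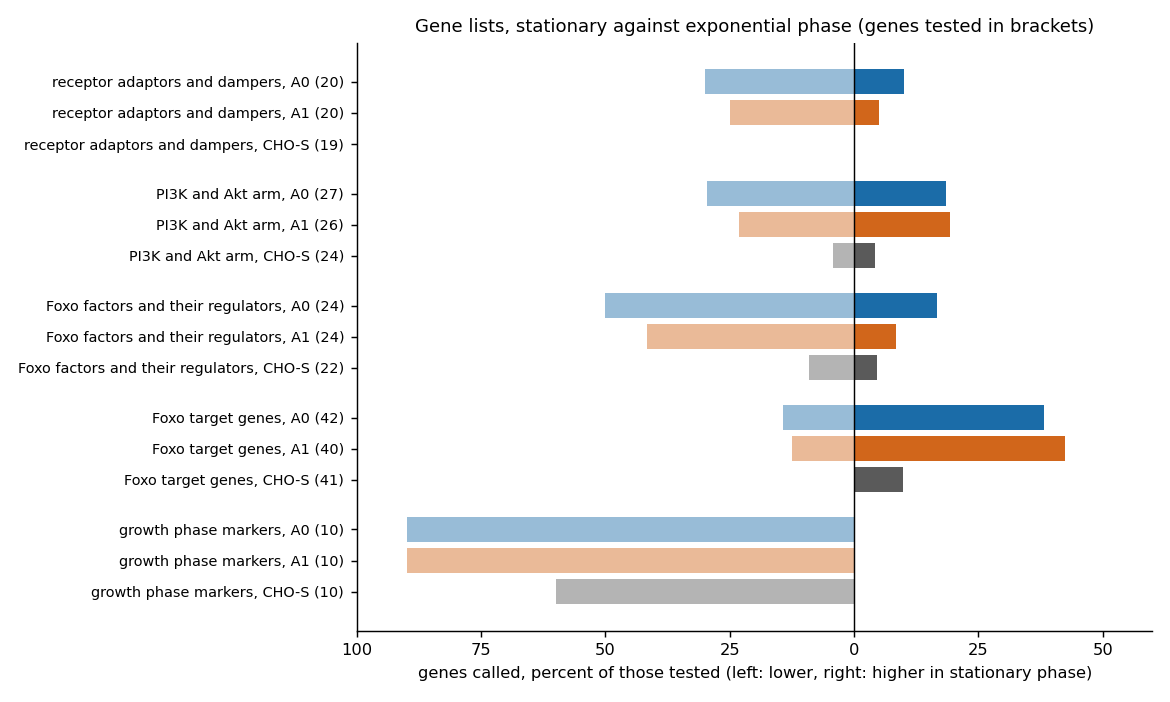
Percent of tested genes of each list that were called higher (right, full colour) or lower (left, pale) in stationary phase in A0, A1 and CHO-S, with the number tested in brackets. Growth phase markers were called lower in 9, 9 and 6 of 10 (10 in CHO-S without stationary culture 1). Foxo target genes were called higher more often than lower (16 and 6 of 42 in A0, 17 and 5 of 40 in A1). The Foxo regulators show the opposite balance. The target list was not split by whether Foxo factors induce or repress a gene. Of all genes, 17.7% were higher and 20.1% lower in A0, 15.6% and 17.8% in A1, and 6.81% and 6.48% in CHO-S.

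Genes known as Foxo targets made a list that includes the members Insr, Irs2 and Igf1r. The list was not split by whether Foxo factors induce or repress a gene. Counts of higher and lower targets therefore do not measure Foxo activity. In A0 stationary phase they were higher in 16 and lower in 6 of 42, with a median of 0.20. All genes had a median of 0.00, with 17.7% higher and 20.1% lower. In A1 the targets were higher in 17 and lower in 5 of 40 (median 0.17). All genes there had a median of 0.03, with 15.6% higher and 17.8% lower. In CHO-S the targets were higher in 4 and lower in 0 of 41 by edgeR (2 lower at an unadjusted p under 0.05, median 0.25). All genes there had a median of 0.02, with 6.81% higher and 6.48% lower. Without CHO-S stationary culture 1 the CHO-S counts were 22 higher and 7 lower of 41 (median 0.27), beside 47.7% of all genes. The genes with the largest rises in A0 were Sesn2 and Nfil3. Sesn2, a leucine sensor that restrains mTORC1 and also an Atf4 target, went from 8.16, 10.2, 10.6 and 10.6 CPM to 79.1, 92.2, 72.1 and 71.6 CPM (2.98, SE 0.123, adjusted p 1.68e-10). In A1, Sesn2 was at 41.2, 47.7 and 51.3 CPM already in exponential phase and at 58.6, 44.9 and 51.9 CPM in stationary phase. It was higher in A1 than in A0 in exponential phase by 2.24 (SE 0.12, adjusted p 6.58e-09), and its response differed between the lines by -2.86 (adjusted p 5.08e-10).

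Nfil3, a bZIP repressor, rose by 1.94 in A0 (adjusted p 2.27e-09). In A1 the named rises were Pdk4, which holds back the pyruvate dehydrogenase complex, and Ccng2, a cyclin linked to arrest. Pdk4 went from 22.99, 21.9 and 21.04 CPM to 63.6, 56.4 and 65.1 CPM in A1 (1.51, SE 0.0835, adjusted p 8.41e-15), against 19.97 to 23.4 and 28.0 to 32.0 CPM in A0, and its response differed by 0.99 (adjusted p 1.02e-04). Ccng2 rose by 1.42 in A1 (adjusted p 1.13e-09). Gabarapl1, an autophagy gene, rose by 1.75 in A0 and 1.08 in A1.

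Cyclin D1 (Ccnd1), which Foxo factors repress, fell by 1.28 in A0 (adjusted p 4.72e-08) and 0.80 in A1 (adjusted p 3.16e-12). It went the other way in CHO-S, where the difference of 0.49 did not pass (adjusted p 0.0581). Without CHO-S stationary culture 1, Ccnd1 rose there by 0.61 (adjusted p 1.63e-25). Cited2 fell by 1.11 in A0 (adjusted p 5.62e-05). In CHO-S the named rises were Bnip3 (2.67, adjusted p 0.00134), Txnip (2.27, adjusted p 0.00287) and Ccnd2 (1.58, adjusted p 0.00476), genes of mitophagy, thioredoxin control and the cell cycle. Without stationary culture 1 these rises were 2.58, 2.46 and 1.33 (adjusted p 4.74e-60, 7.42e-61 and 1.62e-46). The growth phase markers, genes of DNA replication and mitosis, were lower in 9 of 10 in A0, 9 of 10 in A1 and 6 of 10 in CHO-S, or 10 of 10 in CHO-S without stationary culture 1. In A0 their median was -1.08 and in A1 -0.49, and 7 of 10 were higher in A1 than in A0 in stationary phase. Their part in the differences of the pathway genes was not tested.

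**Figure D5:**
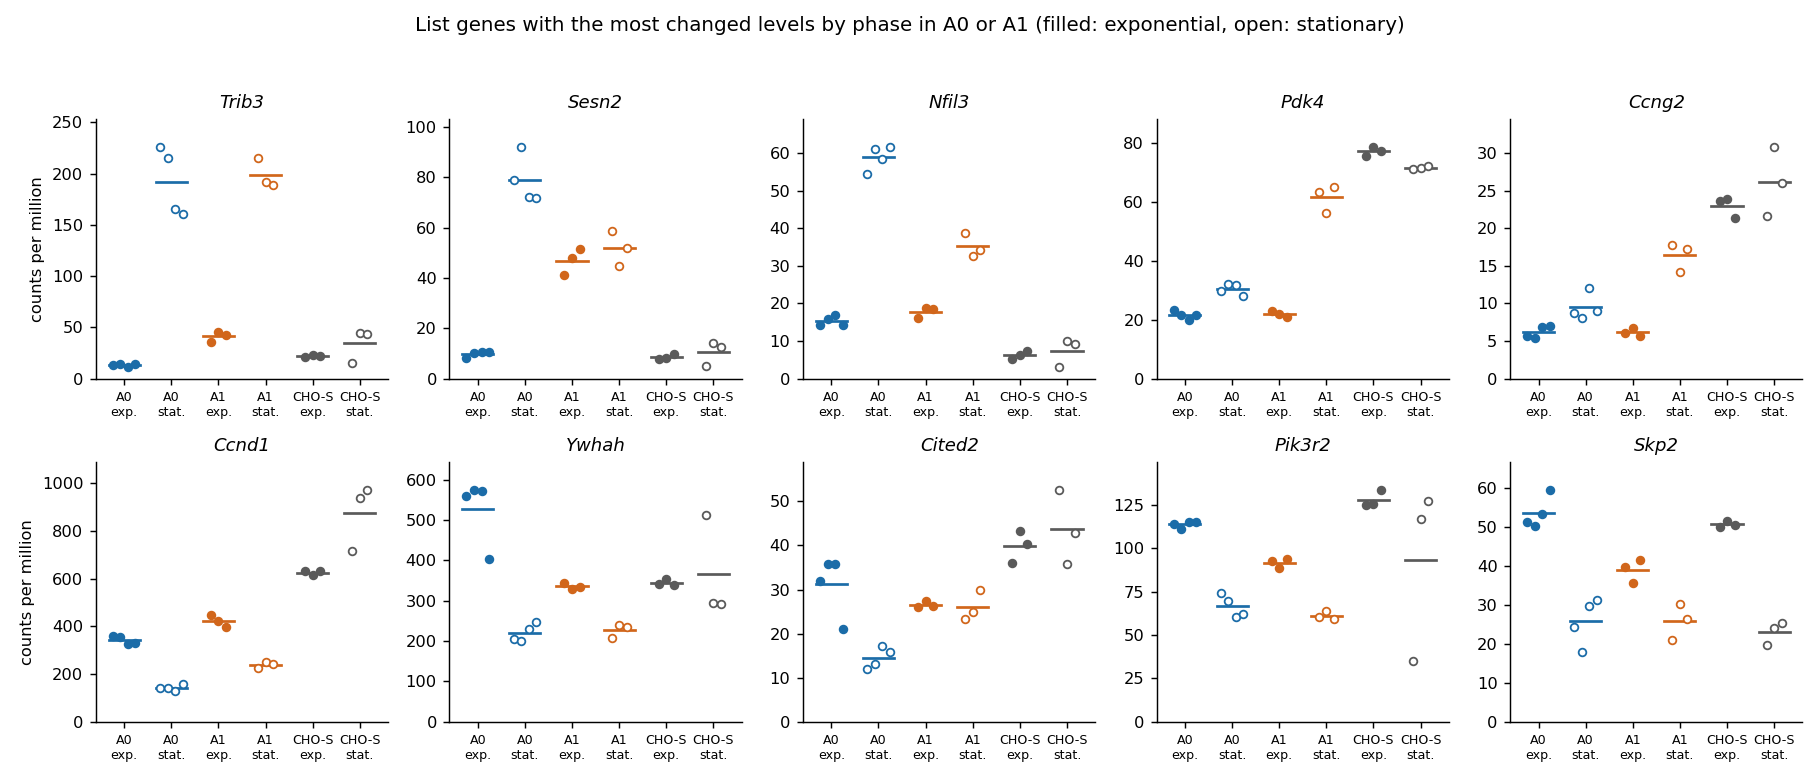
Level of 10 genes of the wider lists in the 20 cultures, in CPM on linear axes from 0, with filled points for exponential and open points for stationary phase and a line at each mean. Trib3 and Nfil3 are higher in every stationary culture than in every exponential culture of A0 and of A1, whereas Sesn2 is as high in A1 exponential phase (41.2 to 51.3) as in A1 stationary phase (44.9 to 58.6).

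Between A1 and A0, 12 Foxo targets were higher and 7 lower of 41 in exponential phase, beside 25.9% of all genes called, and 14 and 10 of 41 in stationary phase, beside 33.7%. Beside Sesn2, Trib3 (1.64, adjusted p 1.38e-07) and Ccnd2 (0.87, adjusted p 1.63e-05) were higher in A1 exponential phase. Sh2b2, an adaptor of the insulin receptor (-1.0, adjusted p 0.00122), and Fbxo32, the ubiquitin ligase atrogin-1 (-0.81, adjusted p 0.00493), were lower. Rbl2, the pocket protein p130, was also lower (-0.80, adjusted p 1.7e-04). Sh2b2 and Fbxo32 had low means, 3.49 and 3.69 CPM in A1 against 7.03 and 6.42 CPM in A0.

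In stationary phase Trib2 (1.66, adjusted p 4.88e-07), Pdk4 (1.01, adjusted p 1.69e-06) and the lipid phosphatase gene Inpp5d (0.86, adjusted p 0.0174) were higher in A1. Enpp1, an inhibitor of the insulin receptor (-1.04, adjusted p 7.46e-04), Eif4ebp1, a repressor of translation that is another Atf4 target (-0.99, adjusted p 2.4e-07), and the 14-3-3 gene Ywhag (-0.84, adjusted p 0.00157) were lower. Low means in A1 and A0 were those of Inpp5d (8.44 against 4.49 CPM), Enpp1 (5.56 against 11.3) and Ywhag (6.79 against 11.7). In A0 against CHO-S in exponential phase, 5 Foxo targets were higher and 21 lower of 42. In A1 against CHO-S, 9 were higher and 25 lower of 41. In those comparisons 49.5% and 57.2% of all genes were called.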

How the data were processed

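RNA-seq data were from 24 libraries of 20 CHO cultures. The deposited values are whole-number read counts per gene, which the authors made from TruSeq Stranded mRNA libraries. The submitters' processing notes name STAR 2.5.4b and HTSeq 0.7.2. The strand setting of the counting is not given in the sources used here, so overlapping and antisense genes are uncertain. HTSeq summary lines (unaligned, multi-mapped, ambiguous or outside genes), which made up 31.8% to 49.8% of the entries per library, were left out. No count column lacked a sample (0). Libraries of 1 culture were summed. edgeR 4.0.16 (R 4.3.3, limma 3.58.1) was used with TMM scaling and the quasi-likelihood test on the groups compared, after genes with counts in fewer than 2 of the cultures compared were dropped. Adjusted p values are Benjamini-Hochberg over all genes tested, two-sided, with a threshold of 0.05. Interactions tested the difference between phase responses. SE is the log2 difference divided by the square root of the quasi-likelihood F, and 95% intervals assume a normal error on the log2 scale. DESeq2 1.42.0 and other settings were alternatives, and the edgeR step was checked on simulated counts. Figures were drawn with matplotlib.

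The 9 genes and the lists were chosen with earlier results of these data known. List genes were named by rule: in each phase comparison and each A1 against A0 comparison, up to 3 called list genes with the largest rises and 3 with the largest falls and a mean of at least 5 CPM. Gabarapl1, Akt2, the 14-3-3 genes and the genes around Irs2 were added after their values were seen. Some genes counted in the lists are not reported here by name. No source says that replicates came from separate thaws, so p-values measure the spread between these samples only. That spread is partly pooled over genes by the quasi-likelihood test. Same-numbered A0 exponential and stationary cultures deviated together (correlations of 0.19 to 0.403, all 4 over 0.1), so the numbers were taken to pair them. The main tests used no replicate block, so their A0 phase values ignore this pairing. A fit with the block, a term for the culture number, was run as an alternative. Cultures of other numbers within the sets 1 and 2 or 3 and 4 correlated at 0.173 to 0.3 and across the sets at -0.366 to -0.139, so number and set cannot be told apart. In the other groups compared, same-numbered cultures did not deviate together, so there the block pairs cultures without such a basis. Sequences were not analysed here, and the RefSeq table of another assembly was used for gene order only.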

Additional observations from a re-analysis of the deposited data

Results flagged for a closer look

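Of the 62 groups of 4 A0 cultures looked at for the 9 genes and the named list genes, 4 held a culture far from the other 3, judged by its gap to the nearest culture as a share of the group's range. Chance gives about 1 in 20, so 4 of 62 is close to what chance gives. They were Igf1r in A0 exponential phase (0.855, with 20.7 CPM in culture 3 against 14.4 to 15.3), Sesn2 in A0 exponential phase (0.841, culture 1 low), Ywhah in A0 exponential phase (0.911, culture 4 low at 404 CPM) and Stc2 in A0 stationary phase (1, which comes from a single count in culture 1 and 0 in the others, so this value was fixed by 1 read).

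For 5 differences between phase responses of the 9 genes, the test of the difference itself passed. They were Insr (-0.56) and Igfbp4 (1.11) between A1 and A0, Insr (1.15) and Igfbp4 (-1.89) between A0 and CHO-S, and Igfbp4 (-0.74) between A1 and CHO-S, in log2 units and with the first line minus the second. The A1 and A0 responses also differed for named list genes. The response was larger, or less negative, in A1 for Trib2 (0.97), Ywhah (0.69), Ccng2 (0.80), Ccnd1 (0.44), Pdk4 (0.99), Fbxo32 (0.91) and Cited2 (1.06). It was smaller in A1 for Trib3 (-1.60), Sesn2 (-2.86), Txnip (-0.73), Eif4ebp1 (-0.60) and Nfil3 (-0.98).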

How the results depend on the processing

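For single genes, 1434 of 1595 values under an alternative kept their direction and their side of the threshold, 63 lost a call, 64 gained one and 33 changed sign without a call on either side. Foxo1 in A1 against CHO-S in stationary phase (-0.01) ranged from -0.21 to 0.21 with 1 culture left out, and was called, at 0.21, without CHO-S stationary culture 1. Counts of called members with 1 culture left out ranged from 4 to 5 (A0 phase), 4 to 6 (A1 phase), 0 to 7 (CHO-S phase), 1 to 3 and 2 to 5 (A1 against A0, exponential and stationary), 4 to 5 and 5 to 6 (A0 against CHO-S), 7 to 8 and 4 to 7 (A1 against CHO-S), and 1 to 3, 2 to 4 and 0 to 6 (differences between phase responses of A1 and A0, A0 and CHO-S, A1 and CHO-S).

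With the replicate block, the counts were 0 for CHO-S phase, 4 for A1 against A0 in exponential phase, 5 for the A1 and A0 responses and 0 for the A1 and CHO-S responses. The block moved other member counts by at most 1.5 times. Outside the A0 phases it pairs cultures whose numbers did not go together. For the A0 phases, which the numbers were taken to pair, it gave 5 in place of 4, with Igf2r added, and lost no call. Over all genes it called 8661 in place of 7647 for the A0 phases. With 6 groups in 1 fit the counts were 3 for A1 phase, 2 for CHO-S phase, and 1, 4 and 0 for the 3 differences between responses. Over all genes, this fit called 2470 in place of 6196 in A1 phase, 4107 in place of 2308 in CHO-S phase, and 973 in place of 1873 for the A1 and A0 responses. The block called 350 for CHO-S phase, 3435 for the A1 and A0 responses, 518 in place of 1495 for the A1 and CHO-S responses, and 5043 in place of 7606 for A0 against CHO-S in stationary phase. Without the filter, or with the first A0 exponential libraries only, 4 members were called in A1 against A0, exponential, and with the latter 4 for the A1 and A0 responses. For the A0 and CHO-S responses, DESeq2 gave 4 and A0 cultures 3 and 4 alone 1. The cause was not tested. The depth of CHO-S stationary culture 1 limits what can be said of CHO-S by phase.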
